A study of Mus musculus with 12 samples.

Results

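Kidneys of Pod-TRECK mice taken 21 days after diphtheria toxin were compared with kidneys of untreated Pod-TRECK mice, across every gene of the deposited table. The comparison used 6 of the 12 whole-kidney libraries of the series, chosen by their labels: 3 from the day-21 group (100 ng of toxin into the peritoneum) and 3 from the control group (no treatment). The other 6 libraries, from earlier times after toxin, entered only 1 alternative fit. All 6 mice carried the same transgene and were kept pathogen-free under a cycle of 12 h light and 12 h dark. Per the series' design text the libraries of a group are separate biological replicates, and all carry 1 batch label. The labels do not give age, strain background or hour of collection. The labels give the controls no injection, so toxin and the handling that goes with an injection cannot be told apart. Counts from the Y chromosome were high and Xist had 1 to 3 counts in each of the 6 libraries, so all 6 kidneys came from male mice.

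In a TRECK model, the receptor for diphtheria toxin is placed in 1 chosen cell type of the mouse, whose own cells bind the toxin poorly, so that the toxin kills that cell type. In Pod-TRECK mice the chosen cell is the podocyte, per the design text, and the promoter that drives the receptor is not given in the sources used here. Podocytes are the epithelial cells that wrap the capillaries of the kidney's filter, the glomerulus, and their interlocking foot processes are joined by the slit diaphragm. When podocytes are lost, the filter leaks protein, the parietal cells lining the glomerular capsule can become activated, and the tubules downstream can be injured. An injured tubule is known to lose its transport and metabolic program, to switch on genes such as Havcr1 and Lcn2, and to draw in immune cells and matrix-producing fibroblasts.

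The 3 day-21 kidneys differed in extent, and this bears on every result below. Total counts ran from 40426124 to 42654903 in the controls and from 34214443 to 35058156 at day 21. Values per library are log2 CPM (counts scaled to a fixed library size) with trimmed-mean scaling, and a difference of 1 is a factor of 2. Of 18333 genes tested, 5072 (27.7%) in replicate 1 and 5382 (29.4%) in replicate 3 lay at least 1 away from the control mean, against 1352 (7.37%) in replicate 2 and 79 to 136 in the single controls. In replicate 2, 966 of these genes were above the controls and 386 below. The first principal component of the 6 libraries, with 79.9% of the variance, placed replicates 1 and 3 at 97.7 and 102, replicate 2 at -10.5 and the controls between -65.8 and -58.3. Mitochondrially encoded RNA took 22.4% to 23.7% of counts in the controls, 21.1% in replicate 2 and 11.8% in each of replicates 1 and 3. In these measures replicate 2 therefore sat between the controls and the other day-21 libraries, nearer the controls. It did not on the second principal component, with 7.4% of the variance. There replicate 2 was at -47.2 and the other 5 libraries lay between -1.79 and 17.2. Replicate 3 also stood apart in RNA of other tissues: the summed level of 7 erythroid genes was 20.4 CPM against 638 to 1210 CPM in the other 5 libraries, and that of 8 adipocyte genes was 573 CPM against 34 to 206 CPM. The part of these tissues in the results was not tested.

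**Figure D1:**
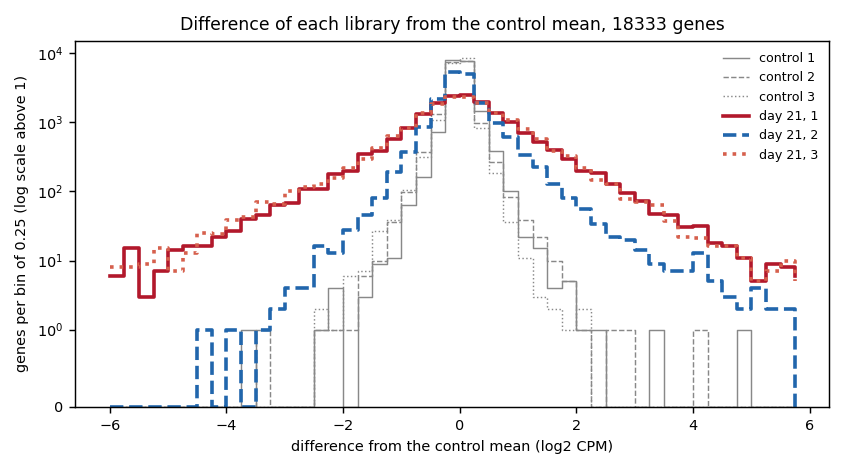
Number of genes (vertical axis, log scale above 1) in each bin of 0.25 of the difference from the control mean in log2 CPM (horizontal axis), with 1 line for each of the 6 libraries. The curves of day-21 replicates 1 and 3 lie on each other and are the widest, that of replicate 2 is narrower, and those of the 3 controls are the narrowest; differences beyond 6 in either direction are not drawn.

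With all 6 libraries, edgeR's quasi-likelihood test called 1631 genes (8.9%) at a Benjamini-Hochberg adjusted p under 0.05, and 7023 (38.3%) had an unadjusted p under 0.05. Of the 1631, 1286 (7.01% of the genes tested) were higher at day 21 and 345 (1.88%) were lower. For all 1631 the day-21 and control values did not overlap. Over all genes tested, 23.9% had all 3 day-21 libraries above all controls and 22.2% had all 3 below. Among the called genes that rose, the median difference from the control mean was 1.93, 1.03 and 1.93 in replicates 1, 2 and 3. Among those that fell, the medians were -1.27, -0.77 and -1.38. The test that called these genes used the same 3 kidneys, so a direction shared by the 3 was largely set by the selection. The median size of the called differences was smallest in replicate 2. Without replicate 2, 11058 of 19590 genes (56.4%) were called, 5623 higher (28.7%) and 5435 lower (27.7%), and these included all 1631 genes in the same direction. Log2 fold changes below are those of all 6 libraries unless replicate 2 is said to be left out. The shares of all genes called, given above, are the background for every list below: 7.01% higher and 1.88% lower with 6 libraries. Without replicate 2 they are 28.7% higher and 27.7% lower. Rises were 78.8% of the calls with 6 libraries and 50.9% without replicate 2. Leaving out any other library had the opposite effect: 3, 5 and 3 genes were called without controls 1, 2 and 3, and 14 and 13 without day-21 replicates 1 and 3. Havcr1, Aoc1 and Serpina10 were called in each of these 6 fits, and every other gene named below that was called with 6 libraries lost its call in at least 1 of them. Scaling by library totals alone moved the median of all genes from 0.04 to 0.52 and gave 5514 higher against 427 lower genes (92.8% higher).

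Of 13406 genes whose log2 CPM averaged 1 or more, 48 were higher by at least 2 in all 3 day-21 libraries and 4 were lower by at least 2 in all 3. In 65 genes replicates 1 and 3 lay at least 1 above the control range with replicate 2 inside it. In 104 genes they lay at least 1 below it in that way. In 508 genes replicate 2 lay below the control range while replicates 1 and 3 lay above it, and in 544 it lay above while the others lay below. No minimum distance was set for the 508 and 544 genes, so they cannot be compared in number with the 65 and 104. These counts describe the libraries and carry no test.

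Of the 48 genes higher in all 3, the 8 with the smallest range over the day-21 libraries included 1 tubular injury marker and several secreted proteins and enzymes. Havcr1 (chr11:46625907-46670405, table coordinates on GRCm39), which encodes the tubular injury receptor KIM-1, was at 1.66, 0.97 and 1.2 in controls 1 to 3 and at 7.22, 6.92 and 6.97 in day-21 replicates 1 to 3. It rose by 5.77 ± 0.24 (log2 fold change ± SE, n = 3 per group, adjusted p = 0.000425 by edgeR's quasi-likelihood test). The groups did not overlap, and replicate 2 was as high as replicate 3.

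Aoc1 (chr6:48849830-48886122, GRCm39), a diamine oxidase that breaks down histamine and polyamines, was at 1.36, 0.92 and 1.3 in the controls and at 5.5, 5.47 and 5.53 at day 21, a rise of 4.32 ± 0.15 (adjusted p = 0.000232). Its 3 day-21 values differed less among themselves than its 3 control values. Serpina10 (chr12:103581045-103597703, GRCm39), a protease inhibitor of the clotting system, was at -0.32, -0.47 and -0.32 in the controls and at 5.17, 4.74 and 5 at day 21, a rise of 5.44 ± 0.18 (adjusted p = 0.000232). Cyp4a14, a fatty acid hydroxylase under control of the receptor PPAR alpha, rose by 3.05 ± 0.31, from 6.01, 5.2 and 5.22 to 8.93, 8.33 and 8.39. Adamts4, a protease that cleaves proteoglycans, and Glipr2 were in the same set and rose by 2.84 ± 0.33 and 2.45 ± 0.28. For each of these genes the groups did not overlap and replicate 2 lay close to the other day-21 libraries. The genes were picked for a rise in all 3 day-21 libraries and a small range over them. Both traits, the close day-21 values of Havcr1 and Aoc1 included, were thus largely set by the selection.

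Few slit diaphragm genes of the podocyte passed with all 6 libraries. Of 34 tested genes of the slit diaphragm and foot process, 1 rose (background 7.01%) and 2 fell (background 1.88%), with a median log2 fold change of -0.40 against 0.04 over all genes tested. Without replicate 2, 18 of 35 were called lower (background 27.7%) and 6 higher (background 28.7%). Under scaling by library totals the list's median was 0.09. The median difference was -0.25, -0.18 and -0.67 in replicates 1, 2 and 3, so the list as a whole did not set replicate 2 apart. Single members did, and those named next were chosen by rule or after their values were seen and do not stand for the list. In RNA of a whole kidney, fewer cells of a type and less RNA per cell cannot be told apart.

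Nphs1 (chr7:30157740-30186648, GRCm39), which encodes nephrin of the slit diaphragm, was at 4.37, 4.22 and 4.52 in the controls and at -1.2, 3.95 and -0.9 at day 21, or 665 to 798 counts against 17, 514 and 22. Replicates 1 and 3 were near the floor of detection and replicate 2 was just under the controls. Nphs1 did not pass the test with 6 libraries (-1.96 ± 1.25, adjusted p = 0.274), and without replicate 2 its log2 fold change was -5.61 (adjusted p = 1.69e-06). Ptpro, a receptor phosphatase of the foot process, and Lmx1b, a podocyte transcription factor, had the same order, at 1.33, 3.37 and 1.19 and at -2.41, -0.43 and -2.83 at day 21 against 3.77 to 3.94 and 0.36 to 0.73 in the controls. Cdkn1c, the cell cycle inhibitor p57 of mature podocytes, was at 2.06 and 2.6 in replicates 1 and 3 and at 4.68 in replicate 2, above the controls at 3.93 to 4.2.

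Wt1, the transcription factor that keeps podocytes differentiated, was 1 of the 2 members that fell. It was at 2.93, 2.89 and 2.92 in the controls and at 1.03, 2.13 and 0.96 at day 21 (log2 fold change -1.45 ± 0.34, adjusted p = 0.0483). Replicate 2 was below every control for Wt1. The other member that fell, Foxd2, a forkhead factor, went from 0.12 to 0.21 in the controls to -1.2, -0.69 and -1.08 (-1.23 ± 0.27). Podxl, the charged coat protein of the podocyte that other cells also make, was at 7.24 to 7.35 in the controls and at 5.83, 6.87 and 5.61 at day 21 (-1.08 ± 0.33, adjusted p = 0.0757). Synpo, an actin-binding protein, was at 5.11 to 5.26 in the controls and at 4.98, 4.98 and 4.6 at day 21 (-0.31 ± 0.13, adjusted p = 0.139). Ptgds, a prostaglandin D synthase listed with podocytes and also made elsewhere, was the member that rose. It went from 1.39, 0.56 and 1.41 to 3.42, 3.22 and 3.87 (2.38 ± 0.3, adjusted p = 0.0225), with all 3 kidneys alike.

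**Figure D2:**
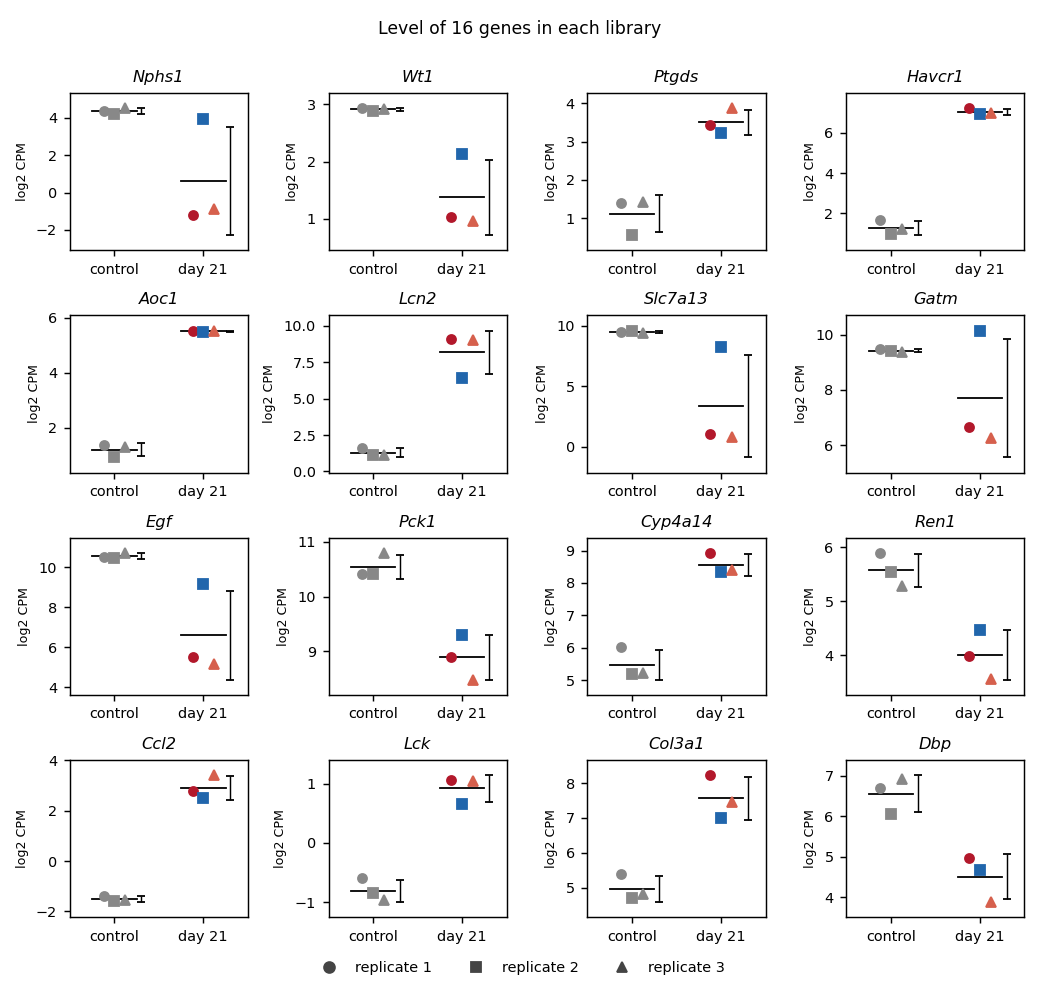
Level in log2 CPM (vertical axis, own scale per panel, not starting at 0) of 16 genes in the 3 control and 3 day-21 libraries, with replicate 1 as a circle, 2 as a square and 3 as a triangle; the line is the group mean and the bar its SD. Havcr1, Aoc1, Ccl2 and Lck lie close together in the 3 day-21 kidneys, whereas Nphs1, Slc7a13 and Egf are far lower in replicates 1 and 3 than in replicate 2, which is below the controls for all 3 genes.

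The mature glomerular basement membrane is built from a collagen IV network of the Col4a3, Col4a4 and Col4a5 chains, which podocytes make, and the Col4a1 and Col4a2 chains are made by many cells. Of 14 tested members of the basement membrane list, 1 fell and none of the others passed, with a median of 0.47. Without replicate 2, 8 were called higher (background 28.7%) and 3 lower (background 27.7%). Col4a3 was at 7.56 to 7.74 in the controls and at 6.13, 7.09 and 5.58 at day 21 (-1.27 ± 0.37, adjusted p = 0.0681). Col4a4 was at 7.46 to 7.59 and then at 6.64, 7.17 and 6.47 (-0.74 ± 0.21, adjusted p = 0.0642). Col4a1 was at 7.15 to 7.35 and then at 9.04, 7.92 and 8.24 (1.2 ± 0.3, adjusted p = 0.0539), and Col4a2 had a difference of 1.12 ± 0.34 (adjusted p = 0.0736). All 4 chains had day-21 libraries that did not overlap the controls, Col4a3 and Col4a4 below and Col4a1 and Col4a2 above. None passed with 6 libraries, the chains were named after their values were seen, and a difference between chains was not tested. Agrn, the proteoglycan agrin, was at 6.15 to 6.17 and then at 7.68, 6.48 and 7.74 (1.25 ± 0.32, adjusted p = 0.0558). The member that fell was Lama1, a laminin chain of tubular and mesangial matrix, from 4.02 to 4.18 to 3.17, 3.41 and 3.2 (-0.86 ± 0.13, adjusted p = 0.0249).

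Parietal epithelial genes rose. Of 11 tested, 7 rose and 4 did not pass, with a median of 2.55, and without replicate 2 all 12 tested were called higher. Limma-voom called 4 higher. The median difference was 2.78 and 2.8 in replicates 1 and 3 and 0.59 in replicate 2. Cd44, the hyaluronan receptor used as a mark of activated parietal cells, was at 1.05, 0.54 and 0.33 in the controls and at 4.68, 3.51 and 4.88 at day 21 (3.84 ± 0.42, adjusted p = 0.0181). Cldn1, the tight junction protein of the capsule, rose by 2.55 ± 0.4. The keratins Krt18 and Krt19 rose by 2.71 ± 0.51 and 4.2 ± 0.9, and Pax8, a transcription factor of kidney epithelia, rose by 0.82 ± 0.18. Cd44, Krt18 and Krt19 are also genes of the injured tubule, and Cp (ceruloplasmin, 2.96 ± 0.48) and Akap12 (2.63 ± 0.62) are made by other cells too, so the list does not locate the RNA in the capsule.

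Of 18 glomerular endothelial genes 2 fell and 16 did not pass, and limma-voom called none. Ehd3, a membrane-trafficking protein concentrated in that endothelium, went from 4.78, 4.88 and 4.9 to 4.32, 4.24 and 3.69 (-0.75 ± 0.18, adjusted p = 0.0484). Lpl, lipoprotein lipase, went from 9.74, 10.1 and 9.74 to 6.65, 8.59 and 7.34 (-2.12 ± 0.5, adjusted p = 0.0484). Lpl is also made by adipocytes, whose summed markers were at 573 CPM in replicate 3, and by the proximal tubule. Kdr, the VEGF receptor that takes the podocyte's signal, was at 5.59 to 5.93 in the controls and at 4.19, 5.34 and 4.05 at day 21 (-1.09 ± 0.35, adjusted p = 0.0799). Without replicate 2, 9 of 18 were called lower (background 27.7%) and 1 higher (background 28.7%). With library totals the median of this list went from -0.31 to 0.14.

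Of 16 tested mesangial and pericyte genes none passed in edgeR's test, 8 were higher and 1 lower at an unadjusted p under 0.05, DESeq2 called 5 higher and limma-voom none. The median difference was 1.24 and 0.77 in replicates 1 and 3 and -0.21 in replicate 2. Acta2, smooth muscle actin, which vascular muscle and myofibroblasts make, was at 4.84, 4.16 and 4.26 in the controls and at 6.77, 4.07 and 6.61 at day 21. Replicate 2 was thus just below the lowest control for Acta2 while the other day-21 kidneys were above all controls. Scaled by library totals instead, replicate 2 lay inside the control range.

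Tubular injury genes formed the list with the highest median. Of 24 tested, 21 rose and the other 3 missed the threshold, with a median of 3.09, and limma-voom called 12 higher. The 3 day-21 libraries were above all controls for all 24 members (background for that pattern 23.9%), and without replicate 2 all 24 were called higher. Median differences were 3.33, 1.6 and 3.63 in replicates 1, 2 and 3. Replicate 2 thus had the same direction with a smaller median. Lcn2, the iron-carrier-binding protein NGAL secreted by stressed tubules, went from 1.63, 1.1 and 1.1 to 9.07, 6.45 and 9.03. Sox9, a transcription factor of the regenerating tubule, went from -1.49, -1 and -0.89 to 3.56, 1.86 and 4.34 (4.83 ± 0.68, adjusted p = 0.024).

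Vcam1, an adhesion molecule that tubule cells gain when repair fails, went from 3.19, 2.92 and 3.28 to 7.15, 6.39 and 7.82 (4.11 ± 0.39, adjusted p = 0.0149). Spp1, the secreted phosphoprotein osteopontin, was already at 9.24 to 9.48 in the controls and reached 13.6, 12.19 and 13.49 (3.85 ± 0.5). Clu, the extracellular chaperone clusterin, rose by 2.95 ± 0.43, Dcdc2a by 2.6 ± 0.25 and Anxa2, a membrane-binding annexin, by 2.09 ± 0.35. Replicate 2 was the lowest day-21 kidney for Lcn2, Sox9, Vcam1 and Spp1, and the groups did not overlap. Timp1, an inhibitor of matrix proteases, had 12, 5 and 7 counts in the controls and 1434, 150 and 1445 at day 21, and Krt20, a keratin of stressed epithelium, had 4, 25 and 2 against 1221, 121 and 1357. Both were far lower in replicate 2 than in the other day-21 libraries, and above every control there. Other genes among the 12 largest rises were Edn1, the vasoconstrictor endothelin (4.19 ± 0.61), Adgrg2, an adhesion receptor (4.21 ± 0.79), and Socs3, the feedback inhibitor of STAT3 (4.31 ± 0.42).

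Genes of the proximal tubule were lower in replicates 1 and 3, and few passed with all 6 libraries. Of 22 tested members of the first and second segments none passed in edgeR's test, 11 were lower at an unadjusted p under 0.05 (background 16%), DESeq2 called 11 lower and limma-voom none. Without replicate 2 all 22 were called lower. The list's median was -1.71 and -1.93 in replicates 1 and 3 and -0.30 in replicate 2. The summed level of the list was 11700 to 12300 CPM in the controls, 4330 and 3440 CPM in replicates 1 and 3 and 10900 CPM in replicate 2. Hnf4a, the transcription factor that maintains this segment, was at 9.19 to 9.45 in the controls and at 7.87, 9.14 and 7.61 at day 21. Slc34a1, the main phosphate carrier, was at 11.88 to 12 and then at 9.12, 11.38 and 8.61. Lrp2 and Cubn, the receptors megalin and cubilin that take up filtered protein, were at 8.12, 10.39 and 7.99 and at 6.21, 8 and 5.7 at day 21 against 10.62 to 10.84 and 8.31 to 8.52. For these 4 genes the groups did not overlap. Slc5a2, the glucose carrier SGLT2, was inside the control range of 8.48 to 8.66 in replicate 2, at 8.56, and at 6.17 and 5.17 in replicates 1 and 3. Gatm, the first enzyme of creatine synthesis, was at 9.37 to 9.47 in the controls, at 6.67 and 6.27 in replicates 1 and 3 and at 10.15 in replicate 2. Gatm was thus below the controls in 2 day-21 kidneys and above them in replicate 2.

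Genes of the straight part of the proximal tubule, segment 3, were lower still in replicates 1 and 3. Of 18 tested genes, 1 rose and 1 fell, with a median of -1.82. Without replicate 2, 16 were called lower and 1 higher. Median differences were -3.91, -0.74 and -3.61 in replicates 1, 2 and 3. Slc7a13, the cystine and aspartate carrier of this segment, was at 9.49, 9.61 and 9.4 in the controls and at 1.06, 8.25 and 0.75 at day 21, which is 23468 to 28035 counts against 90, 10167 and 74. Slc22a7, an organic anion carrier, had 2955 to 5065 counts in the controls and 7, 1340 and 8 at day 21. Kap, an androgen-dependent secreted kidney protein and the most abundant of these RNAs, was at 14.6 to 14.96 and then at 9.22, 13.88 and 8.62. In all 3 genes every day-21 kidney lay under the controls, and replicates 1 and 3 lay far under replicate 2. Replicate 2 differed from the control mean by -1.25 for Slc7a13 and by -1.51 for Slc22a7. Napsa, the aspartic protease napsin A, was the member that fell, from 10.35, 10.09 and 10.08 to 8.68, 9.33 and 8.44 (-1.32 ± 0.29, adjusted p = 0.0438). Cyp4a14, given above, was the member that rose. A separate list of 11 kidney genes that differ between the sexes, Kap and Cyp2e1 among them, had medians of -4.49, -0.64 and -4.38 in replicates 1, 2 and 3. None of those 11 passed in edgeR's test, 2 were lower at an unadjusted p under 0.05, DESeq2 called 3 lower and limma-voom none. All 6 mice were male, so sex does not differ between the groups.

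Enzymes of amino acid breakdown were also lower in replicates 1 and 3 than in replicate 2, with medians of -1.94, -0.44 and -2.08 in replicates 1, 2 and 3. Of 26 tested enzymes of amino acid breakdown, 2 fell and 24 did not pass, with a median of -1.26, and without replicate 2, 24 were called lower. Hpd, which degrades tyrosine, was the called gene with the deepest fall of those named here, from 5.28, 5.1 and 5.22 to 0.98, 2.96 and 1.7 (-3.11 ± 0.48, adjusted p = 0.0266). Afmid, which acts in tryptophan breakdown towards NAD, went from 6.28, 6.41 and 6.26 to 4.93, 5.27 and 4.94 (-1.27 ± 0.13, adjusted p = 0.0181), and its 3 day-21 values lay close together. Other genes among the 12 largest falls were Upp2, which splits uridine (-2.85 ± 0.52), Susd2, a membrane protein (-2.38 ± 0.5), Apoh, a phospholipid-binding plasma protein (-2.35 ± 0.5), Ftcd, which degrades histidine (-2.27 ± 0.53), and the secreted protein Angptl7 (-2.56 ± 0.6). All of these had replicate 2 between the controls and the other day-21 kidneys.

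Pck1, the rate-limiting enzyme of gluconeogenesis, was the 1 of 10 genes of that pathway that fell, from 10.42, 10.42 and 10.8 to 8.89, 9.29 and 8.48 (-1.63 ± 0.29, adjusted p = 0.0316). G6pc, which releases free glucose, was at 7.69 to 8.51 in the controls and at 6.57, 7.54 and 6.48 at day 21 (adjusted p = 0.0634). Without replicate 2, 9 of the 10 were called lower and 1 higher. Of 22 genes of fatty acid oxidation, 1 rose and 21 did not pass, and without replicate 2, 16 were called lower and 2 higher. Acadm, which starts the oxidation of medium-chain fatty acids, was at 9.45 to 9.56 and then at 7.19, 9.22 and 7.16 (-1.29 ± 0.58, adjusted p = 0.147).

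Of 23 nuclear genes of oxidative phosphorylation none passed in edgeR's test, 9 were lower at an unadjusted p under 0.05, DESeq2 called 9 lower and limma-voom none. Without replicate 2 all 23 were called lower. Their median differences were -1.15, -0.14 and -0.89. Of the 13 protein genes of the mitochondrial genome none passed by edgeR and none had an unadjusted p under 0.05, DESeq2 called 10 lower, limma-voom called none, and without replicate 2 all 13 were called lower. The summed level of these 13 was 219000 to 233000 CPM in the controls and 112000, 203000 and 114000 CPM at day 21. These levels moved with the summed proximal tubule levels given above, and the part of fewer proximal tubule cells in them was not tested.

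Of 18 genes of glycolysis 3 rose (background 7.01%) and 15 did not pass, with a median of -0.07 that became 0.41 with library totals, and limma-voom called 1 higher. Without replicate 2, 6 were called higher (background 28.7%) and 8 lower (background 27.7%). Those that rose were Slc2a1, the glucose carrier GLUT1 (0.69 ± 0.15), Pfkp, a phosphofructokinase (0.94 ± 0.18), and Slc16a3, the lactate exporter MCT4 (2.18 ± 0.46). Among 18 organic ion and drug transporters, 2 rose and 1 fell, with a median of -1.15, and limma-voom called none higher and 1 lower. Abcc3 and Abcc4, which pump conjugates and organic anions out of cells, rose by 2.74 ± 0.65 and 0.65 ± 0.15, and Slc22a4, an ergothioneine carrier, fell by 1.41 on the log2 scale (SE 0.3). Without replicate 2, 15 of the 18 were called lower (background 27.7%) and 2 higher (background 28.7%). In cholesterol synthesis, 1 of 21 genes rose and 1 fell (Fdps 0.6 ± 0.12, which makes farnesyl diphosphate, and Sc5d -0.84 ± 0.16, a sterol desaturase). Without replicate 2, 14 of these 21 were called lower (background 27.7%) and 1 higher (background 28.7%). Ribosomal protein genes were higher by less: none of 18 passed in edgeR's test, 10 were higher at an unadjusted p under 0.05 (background 22.3%), DESeq2 called 10 higher and limma-voom none. The 3 day-21 libraries were above all controls for all 18 (background for that pattern 23.9%), with a median of 0.48 that became 0.98 with library totals.

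**Figure D3:**
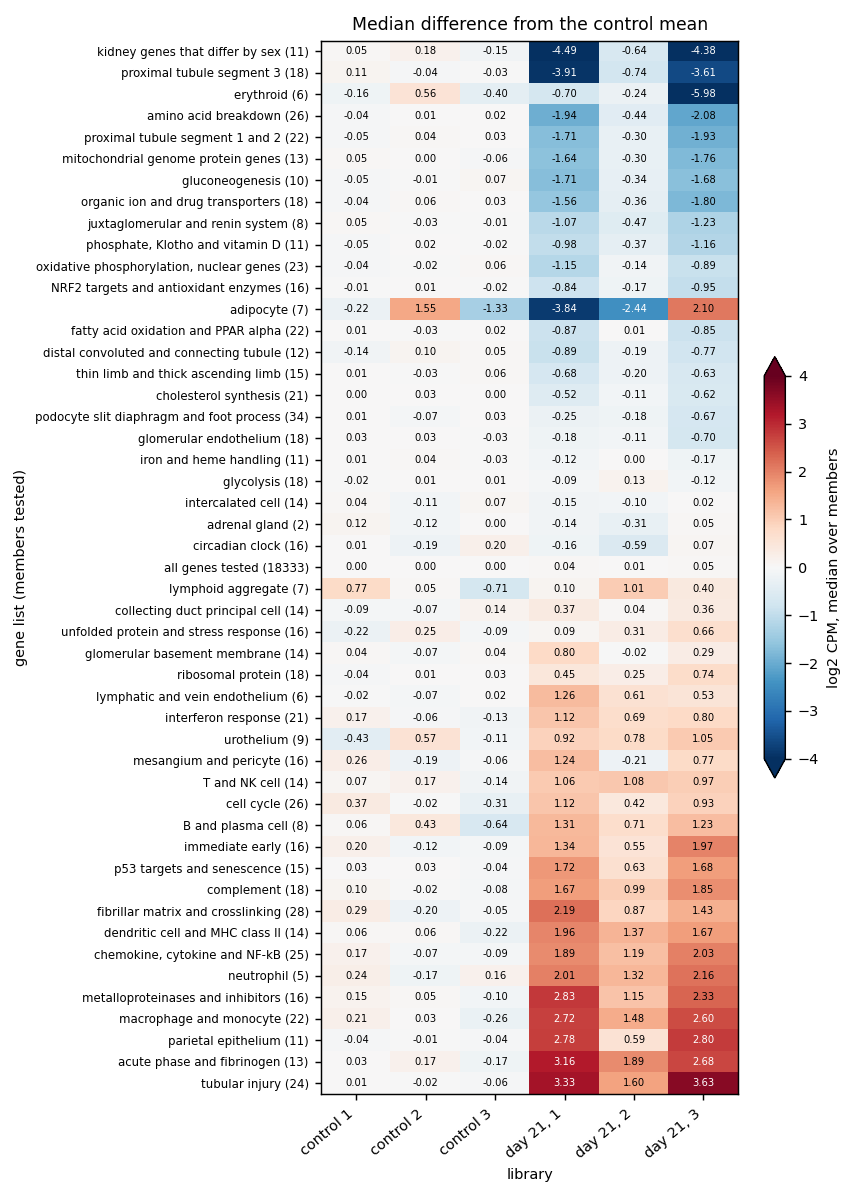
Median difference from the control mean, in log2 CPM, of the tested members of each gene list (rows, with the number tested) in each of the 6 libraries (columns); red is higher, blue is lower, and the printed value is the median. Tubular injury reads 3.33, 1.60 and 3.63 and segment 3 of the proximal tubule -3.91, -0.74 and -3.61 in day-21 replicates 1, 2 and 3, and the erythroid and adipocyte lists set replicate 3 apart.

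Beyond the proximal tubule, the medians of the segment lists were closer to 0, at -0.49 in the thin limb and thick ascending limb, -0.61 in the distal convoluted and connecting tubule, 0.26 in collecting duct principal cells and -0.07 in intercalated cells. Single genes in them, Egf and Pvalb among them, had far larger differences in replicates 1 and 3. In the list of the thin limb and thick ascending limb, 1 of 15 tested genes rose, a share near the background of 7.01%, and 14 did not pass. The list's median became -0.04 with library totals. Without replicate 2, 4 of 16 were called higher (background 28.7%) and 10 lower (background 27.7%). Umod, the tubule's most abundant secreted protein, was at 11.5, 11.5 and 11.58 in the controls and at 10.94, 11.25 and 10.9 at day 21 (-0.49 ± 0.26, adjusted p = 0.205). Egf, the growth factor made by the same cells and the distal convoluted tubule, was at 10.49, 10.46 and 10.71 and then at 5.49, 9.15 and 5.15 (-2.8 ± 1.08, adjusted p = 0.112). Egf was thus far lower in replicates 1 and 3, where Umod was a little lower. Slc12a1, the sodium-potassium-chloride carrier, was at 10 to 10.26 and then at 9.16, 9.92 and 9.33. Cldn19, which forms the magnesium and calcium pathway between cells, rose by 1.04 ± 0.18, and its partner Cldn16 was at 2.83 to 2.89 and then at 4.06, 3.01 and 4.44 (1.09 ± 0.34, adjusted p = 0.0759).

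In the distal convoluted and connecting tubule, 1 of 12 genes rose (background 7.01%) and 1 fell (background 1.88%). Without replicate 2, 1 was called higher (background 28.7%) and 10 lower (background 27.7%). Trpv5, the apical calcium channel, rose from 4.32, 4.5 and 4.55 to 5.92, 5.07 and 5.99 (1.25 ± 0.25, adjusted p = 0.0368). Wnk4, the kinase that regulates salt carriers there, fell by 0.48 on the log2 scale (SE 0.11), and this direction shrank to -0.02 with library totals. Slc12a3, the thiazide-sensitive carrier, was at 9.05 to 9.22 and then at 7.99, 9.01 and 7.56. Pvalb, a calcium buffer of the early part of this segment, had 523, 571 and 616 counts in the controls, 449 in replicate 2, 1 in replicate 3 and 0 in replicate 1, a count that allows up to 3. Among 14 collecting duct principal cell genes, 1 rose and 13 did not pass, a share near the background of 7.01%, and limma-voom called none. Without replicate 2, 8 were called higher (background 28.7%) and 1 lower. The gene that rose was Aqp2, the vasopressin-regulated water channel, from 6.3, 6.4 and 6.91 to 7.73, 7.31 and 8.28 (1.27 ± 0.29, adjusted p = 0.0469). Scnn1b, a subunit of the epithelial sodium channel, was at 5.07 to 5.12 in the controls, at 5.14 in replicate 2 and at 6.2 and 6.27 in the others (adjusted p = 0.0843). Of 14 intercalated cell genes, 1 rose (background 7.01%) and 1 fell (background 1.88%). Spink8 rose by 0.65 ± 0.14 and Insrr, an alkali-sensing receptor, fell from 4.46, 4.15 and 4.39 to 2.81, 3.44 and 2.73 (-1.32 ± 0.22).

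**Figure D4:**
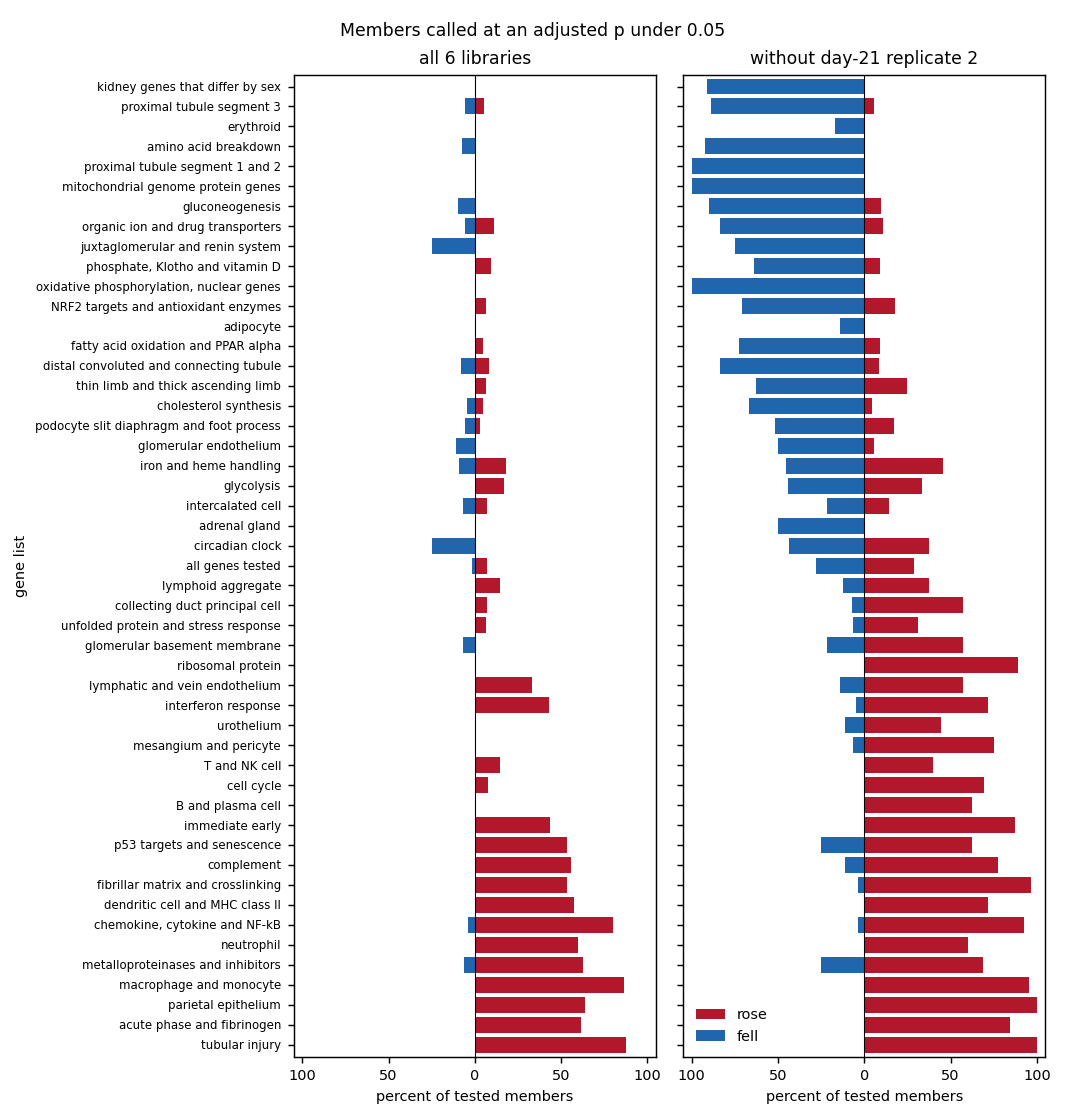
Percent of the tested members of each list that were called higher (red, to the right) or lower (blue, to the left) at an adjusted p under 0.05 by edgeR's quasi-likelihood test, with all 6 libraries (left panel) and without day-21 replicate 2 (right panel). With 6 libraries the long bars are rises in injury, macrophage, chemokine and parietal lists, and without replicate 2 the tubular and mitochondrial lists have blue bars that reach 100 percent for 3 lists.

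Chemokine, cytokine and NF-kB genes rose in all 3 kidneys. NF-kB is a family of transcription factors that injury signals release into the nucleus, and chemokines are the secreted proteins that call leukocytes into tissue. Of 25 tested genes, 20 rose, 1 fell and 4 did not pass, with a median of 1.75 and medians of 1.89, 1.19 and 2.03 in replicates 1, 2 and 3. Without replicate 2, 24 of 26 were called higher and 1 lower. Ccl2, the main attractant of monocytes, went from -1.38, -1.59 and -1.56 to 2.78, 2.51 and 3.41 (4.67 ± 0.33, adjusted p = 0.00832), so replicate 2 was close to the other day-21 kidneys. Cxcl1, an attractant of neutrophils, went from 0.85, -0.04 and -0.32 to 3.39, 2.47 and 4.27 (3.36 ± 0.55). Cxcl2, its close relative, had 1, 3 and 1 counts in the controls and 119, 42 and 183 at day 21, a ratio of 82.9 for the groups' counts over their totals (exact 95% interval 35.2 to 257, for counting error only). The cytokine genes Tnf and Il1b rose by 3.51 ± 0.65 and 1.76 ± 0.3 from low levels.

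Nfkb2, which encodes the p100 precursor of the second NF-kB pathway, went from 3.32, 3.27 and 3.16 to 4.74, 4.37 and 5.22 (1.58 ± 0.22, adjusted p = 0.0239). Its partner Relb rose by 2.01 ± 0.41, Nfkb1, which encodes p105, by 0.79 ± 0.15, and Birc3, an inhibitor of cell death downstream, by 1.97 ± 0.3. Tnfsf10, which encodes the death ligand TRAIL, was the member that fell, from 5.29, 5.3 and 5.21 to 4.56, 4.58 and 4.43 (-0.75 ± 0.1, adjusted p = 0.0229). Its 3 day-21 values lay close together, and with library totals its log2 fold change was -0.27 (adjusted p = 0.159). The summed level of macrophage genes moved with this list (87.6 to 116 CPM in the controls and 884, 308 and 755 CPM at day 21), and their part in it was not tested.

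The promoters of this list were searched for the letters of the NF-kB site. In RefSeq promoters of the older build GRCm38.p6, taken from 250 bases before to 50 bases after each start site, the kB motif GGGNNTTTCC on either strand was found in 11 of the 21 promoters of the 18 list genes that matched by symbol (52.4%), against 1.63% of all 32851 promoters. Of 9 genes with a match 6 rose, and of 9 without a match 7 rose and 1 fell. The promoters of Cxcl1, Cxcl2 and Nfkb2 are shown because these genes rose in all 3 kidneys and hold the motif. Transcription starts after base 250 of each sequence, and capitals mark the matches. A match describes the letters and is neither a bound site nor a cause.
Cxcl1 (chr5:90890995-90891294, plus strand): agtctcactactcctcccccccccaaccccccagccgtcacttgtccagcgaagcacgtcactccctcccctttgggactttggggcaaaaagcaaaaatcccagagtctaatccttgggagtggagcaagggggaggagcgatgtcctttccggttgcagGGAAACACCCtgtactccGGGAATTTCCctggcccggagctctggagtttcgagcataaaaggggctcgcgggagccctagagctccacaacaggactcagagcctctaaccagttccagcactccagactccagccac
Cxcl2 (chr5:90903649-90903948, plus strand): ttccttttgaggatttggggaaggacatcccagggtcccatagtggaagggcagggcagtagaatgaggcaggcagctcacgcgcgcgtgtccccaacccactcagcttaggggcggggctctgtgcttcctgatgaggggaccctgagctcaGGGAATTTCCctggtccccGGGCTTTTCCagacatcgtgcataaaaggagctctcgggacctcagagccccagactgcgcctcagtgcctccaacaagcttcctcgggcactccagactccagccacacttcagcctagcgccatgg
Nfkb2 (chr19:46304487-46304786, plus strand, 1 of 3 promoters of the gene): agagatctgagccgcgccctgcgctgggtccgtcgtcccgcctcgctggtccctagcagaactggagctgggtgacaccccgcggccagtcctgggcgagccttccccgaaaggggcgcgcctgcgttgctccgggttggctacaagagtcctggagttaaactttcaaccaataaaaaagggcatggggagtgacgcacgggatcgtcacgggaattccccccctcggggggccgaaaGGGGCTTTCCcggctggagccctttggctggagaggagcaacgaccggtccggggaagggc
Cxcl1 and Cxcl2 each hold 2 matches and the Nfkb2 promoter shown holds 1.

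Of 21 tested interferon-response genes, 9 rose and 12 did not pass, with a median of 0.85 and medians of 1.12, 0.69 and 0.80 in replicates 1, 2 and 3, and without replicate 2, 15 were called higher and 1 lower. Bst2, the tetherin that holds budding viruses, went from 3.13, 2.95 and 2.8 to 3.95, 3.78 and 4.15 (1.01 ± 0.16, adjusted p = 0.0265). Ifit1, a sensor of foreign RNA caps, went from 1.83, 1.47 and 1.71 to 3.04, 2.36 and 2.8 (1.1 ± 0.23). Irf7, the factor that amplifies the interferon response, rose by 1.83 ± 0.31. For all 3 genes the groups did not overlap and replicate 2 was the lowest day-21 kidney. The interferon-stimulated response element, searched as GAAANNGAAA on either strand, was found in 10 of the 20 promoters of 16 list genes (50%), against 3.44% of all promoters. Of 10 genes with a match 4 rose, and of 6 without a match 5 rose. The promoters of Bst2 and Ifit1, the members named here that hold the element, are shown with the matches in capitals.
Bst2 (chr8:71537423-71537722, minus strand): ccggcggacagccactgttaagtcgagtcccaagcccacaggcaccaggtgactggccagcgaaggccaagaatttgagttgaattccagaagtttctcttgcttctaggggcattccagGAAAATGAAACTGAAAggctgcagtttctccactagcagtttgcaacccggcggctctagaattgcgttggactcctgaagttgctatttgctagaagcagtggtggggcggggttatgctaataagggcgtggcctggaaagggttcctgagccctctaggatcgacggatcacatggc
Ifit1 (chr19:34640639-34640938, plus strand): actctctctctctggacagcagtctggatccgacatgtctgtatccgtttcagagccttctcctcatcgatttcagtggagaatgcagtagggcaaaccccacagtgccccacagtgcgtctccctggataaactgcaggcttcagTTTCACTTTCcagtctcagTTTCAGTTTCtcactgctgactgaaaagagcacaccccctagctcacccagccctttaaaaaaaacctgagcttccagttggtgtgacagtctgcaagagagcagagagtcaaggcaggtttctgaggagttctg
Each holds 2 matches, which overlap in Bst2.

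Macrophage and monocyte genes rose: 19 of 22 tested, with a median of 2.36 and medians of 2.72, 1.48 and 2.60 in the 3 kidneys. Without replicate 2, 21 of 22 were called higher. Adgre1, which encodes the macrophage surface protein F4/80, went from 1.9, 1.54 and 1.32 to 3.39, 3.4 and 3.25 (1.76 ± 0.2, adjusted p = 0.0191), equal in the 3 kidneys. Csf1r, the growth factor receptor of the same lineage, did not pass: it was at 5.63, 5.54 and 5.31 in the controls and at 5.58, 5.37 and 5.28 at day 21 (-0.09 ± 0.13, adjusted p = 0.638). Trem2, a lipid receptor of macrophages in damaged tissue, had 3, 2 and 0 counts in the controls and 232, 23 and 222 at day 21, a ratio of 115 (exact 95% interval 48.9 to 356, counting error only). Trem2 was thus far lower in replicate 2 than in the other day-21 kidneys, where Adgre1 was as high as in the others. Of 14 genes of dendritic cells and MHC class II, 8 rose, with a median of 1.61, among them Cd74 (2.11 ± 0.3) and H2-Aa (2.04 ± 0.27), which present antigen, and their master regulator Ciita (1.73 ± 0.24). Without replicate 2, 10 of the 14 were called higher.

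Neutrophil and lymphocyte RNA was scarce. Of 12 neutrophil genes 5 could be tested and 3 of these rose. S100a8, a calcium-binding protein of neutrophils, had 3, 1 and 3 counts in the controls and 44, 14 and 55 at day 21, and Csf3r, the receptor of their growth factor, rose by 2.12 ± 0.36. Of 20 T and NK cell genes 14 could be tested and 2 rose, with a median of 1.17 and medians of 1.06, 1.08 and 0.97 in the 3 kidneys. Lck, the kinase of the T cell receptor, went from -0.6, -0.85 and -0.97 to 1.06, 0.66 and 1.04 (1.82 ± 0.26, adjusted p = 0.0243), and Zap70, the kinase that follows it, rose by 1.39 ± 0.33. By its median the T cell list was as high in replicate 2 as in the other kidneys, whereas Lck was lowest there. Of 14 B and plasma cell genes 8 could be tested and none passed in edgeR's test, 5 were higher at an unadjusted p under 0.05, DESeq2 called 2 higher and limma-voom none. Igkc, the kappa light chain, was at 1.15, 2.01 and -0.97 in the controls and at 4.02, 3.26 and 3.37 at day 21 (adjusted p = 0.0605).

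Complement and acute-phase genes rose. Of 18 complement genes 10 rose (background 7.01%), with a median of 1.62. Without replicate 2, 14 of these 18 were called higher (background 28.7%) and 2 lower (background 27.7%). C3, the central component, went from 4.06, 4.4 and 3.85 to 10.06, 7.83 and 10.39 (5.66 ± 0.71, adjusted p = 0.0225). Cfi, a protease that inactivates C3b, went from 2.1, 2.09 and 2.1 to 4.42, 3.81 and 3.92 (2 ± 0.19, adjusted p = 0.0149), and C7, of the membrane attack complex, rose by 2.01 ± 0.23. Both C3 and Cfi were lowest in replicate 2, and Cfi differed less among the day-21 kidneys than C3. Of 13 tested acute-phase genes 8 rose, with a median of 2.91, and without replicate 2, 11 were called higher. The 3 fibrinogen chains Fga, Fgb and Fgg, whose products form clots, rose by 2.91 ± 0.33, 4.03 ± 0.33 and 3.54 ± 0.36. Fgb went from 0.07, 0.67 and 0.19 to 4.66, 3.65 and 4.43. Stat3, the transcription factor of that response, rose by 1.34 ± 0.23, and Serpina3n, a protease inhibitor among its targets, had 8, 11 and 2 counts in the controls and 1283, 71 and 1664 at day 21.

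Matrix genes rose, least in replicate 2. Of 28 genes of fibrillar matrix and its crosslinking, 15 rose and 13 did not pass, with a median of 1.59 and medians of 2.19, 0.87 and 1.43 in the 3 kidneys. Without replicate 2, 27 were called higher and 1 lower, and with all 6 libraries limma-voom called 9 higher. Col3a1, a fibrillar collagen of early scars, went from 5.4, 4.69 and 4.82 to 8.23, 7 and 7.46 (2.65 ± 0.37, adjusted p = 0.0239). Col1a1, the main scar collagen, went from 4.31, 3.22 and 3.55 to 7.29, 5.18 and 6.78 (2.89 ± 0.56). Replicate 1 was the highest for both, and the groups did not overlap. Lox, which crosslinks collagen, rose by 3.56 ± 0.67, Ltbp2, a microfibril protein, by 4.94 ± 0.86, and Tgfb1, the growth factor that drives matrix production, by 1.14 ± 0.27. Of 16 tested metalloproteinases and inhibitors, 10 rose and 1 fell, with a median of 2.32, and without replicate 2, 11 were called higher and 4 lower. Limma-voom called 5 higher and 1 lower. The inhibitors moved apart: Timp1 rose, as given above, and Timp3, which binds to matrix, fell from 10.47, 10.7 and 10.63 to 9.37, 9.82 and 9.32 (-1.08 ± 0.24, adjusted p = 0.0456). Adam8, a membrane protease of leukocytes and stressed epithelium, rose by 5.04 ± 0.7.

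Of 26 cell cycle genes 2 rose and 24 did not pass, a share near the background of 7.01%, with a median of 0.81. Without replicate 2, 18 were called higher (background 28.7%). Cdk1, the kinase that starts mitosis, went from 0.82, 0.29 and -0.18 to 2.4, 1.34 and 2.31 (1.76 ± 0.39), and Top2a, which untangles DNA, rose by 1.45 ± 0.32. Of 15 p53 target and senescence genes 8 rose, with a median of 1.47, and without replicate 2, 10 of 16 were called higher and 4 lower. Limma-voom called none of them. Cdkn1a, which encodes the arrest factor p21, went from 1.28, 1.76 and 1.32 to 4.98, 2.69 and 5.44 (3.32 ± 0.66, adjusted p = 0.0372), and Gdf15, a stress cytokine, rose by 2.94 ± 0.62. The difference between the 2 lists was not tested. Of 16 genes of the unfolded protein and stress response 1 rose, Atf3, a share near the background of 7.01%, with a median of 0.35. Without replicate 2, 5 of them were called higher (background 28.7%) and 1 lower (background 27.7%). Of 16 tested NRF2 targets and antioxidant enzymes 1 rose by edgeR's test, also near the background. It was Srxn1, which repairs oxidised peroxiredoxins (0.55 ± 0.13, adjusted p = 0.0486). The NRF2 list's median was -0.61 (-0.19 with library totals), and without replicate 2, 12 of 17 were called lower and 3 higher. Limma-voom called none in either list. Of 16 immediate early genes 7 rose, with a median of 1.32, and without replicate 2, 14 were called higher. Egr2 went from -1.1, -1.59 and -2.16 to 1.42, 0.79 and 1.8 (3.14 ± 0.43), Atf3 from 0.14, -0.12 and 0.04 to 3.19, 1.7 and 3.95 (3.25 ± 0.56), Klf6 rose by 2.86 ± 0.56 and Myc by 2.36 ± 0.47. These 4 encode transcription factors that respond quickly to stress or growth signals, and all had replicate 2 as the lowest day-21 kidney.

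Of 16 clock genes, 4 fell (background 1.88%) and 12 did not pass, with a median of -0.19 (0.33 with library totals). Without replicate 2, 6 were called higher (background 28.7%) and 7 lower (background 27.7%). Dbp, Tef and Hlf, the 3 related PAR bZIP factors that carry the clock's rhythm to its outputs, all fell. Dbp went from 6.7, 6.04 and 6.92 to 4.96, 4.68 and 3.88 (-2.03 ± 0.34, adjusted p = 0.0284). Tef went from 7.83, 7.58 and 7.95 to 6.65, 6.68 and 6.38 (-1.22 ± 0.17, adjusted p = 0.0239), and Hlf fell by 1.5 on the log2 scale (SE 0.23). Ciart, a repressor within the clock, went from 2.64, 1.96 and 2.91 to 0.42, 0.71 and -1.15 (-2.43 ± 0.52, adjusted p = 0.0418). Replicate 2 was close to replicate 1 for Dbp, Tef and Ciart, and replicate 3 was the lowest. Hlf differed: it was at 4.82, 5.47 and 4.69 at day 21, nearest the controls in replicate 2. Arntl, the activator BMAL1, which peaks at the opposite time of day, was at 0.31, 1.96 and 0.12 in the controls and at 2.62, 2.89 and 2.93 at day 21 (1.79 ± 0.51, adjusted p = 0.0654). Control 2 was the nearest to the day-21 kidneys for each of Dbp, Tef, Ciart and Arntl. The part of the hour of collection in these values was not tested.

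The clock's activator binds the E-box CACGTG, which was found in 6 of the 20 promoters of 15 clock genes (30%), against 7.15% of all promoters. Of 5 genes with a match 2 fell, and of 10 without a match 2 fell. The matching promoters of the 2 that fell, Ciart and Tef, are shown with the motif in capitals.
Ciart (chr3:95882179-95882478, minus strand): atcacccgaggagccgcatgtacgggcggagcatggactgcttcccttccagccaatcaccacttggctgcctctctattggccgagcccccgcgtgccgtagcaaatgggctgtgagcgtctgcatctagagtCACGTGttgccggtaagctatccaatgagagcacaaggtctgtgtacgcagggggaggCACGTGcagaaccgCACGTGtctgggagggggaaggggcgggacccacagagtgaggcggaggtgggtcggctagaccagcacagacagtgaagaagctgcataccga
Tef (chr15:81802423-81802722, plus strand, 1 of 2 promoters of the gene): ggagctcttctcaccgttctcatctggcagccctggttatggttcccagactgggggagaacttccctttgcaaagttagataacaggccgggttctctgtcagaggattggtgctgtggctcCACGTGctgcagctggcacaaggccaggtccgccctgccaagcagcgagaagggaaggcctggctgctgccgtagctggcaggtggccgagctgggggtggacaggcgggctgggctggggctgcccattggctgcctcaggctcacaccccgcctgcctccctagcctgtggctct
Ciart holds 3 matches and Tef holds 1. Dbp and Hlf had no match in this window, which says only that these letters are not in it.

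Of 8 juxtaglomerular and renin system genes 2 fell, with a median of -0.88, and without replicate 2, 6 were called lower. Ren1, which encodes renin, the enzyme that starts the angiotensin cascade, went from 5.9, 5.54 and 5.28 to 3.99, 4.47 and 3.55 (-1.54 ± 0.27, adjusted p = 0.0309), lower in all 3 kidneys. Mme, the peptidase neprilysin of the proximal tubule brush border, fell by 0.87 on the log2 scale (SE 0.17). In the list of phosphate, Klotho and vitamin D, 1 of 11 genes rose and 10 did not pass, and without replicate 2, 1 was called higher and 7 lower. Cyp27b1, which makes active vitamin D, rose from 1.42, 2.17 and 1.4 to 5.3, 3.3 and 4.54 (2.9 ± 0.52, adjusted p = 0.0327). Cyp24a1, which degrades it, was at 6.37, 5.88 and 6.35 and then at 4.12, 5.63 and 3.44 (-1.52 ± 0.53, adjusted p = 0.0942). Kl, the FGF23 co-receptor Klotho, was at 9.54 to 9.77 and then at 7.06, 9.3 and 6.91 (-1.44 ± 0.65, adjusted p = 0.149). Of 11 iron and heme genes 2 rose and 1 fell: Slc40a1, the iron exporter ferroportin, rose by 0.91 ± 0.15, Cp, which oxidises exported iron, rose as given above, and Slc11a2, an iron importer, fell by 0.57 on the log2 scale (SE 0.13; -0.11 with library totals).

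Some genes were chosen because replicates 1 and 3 lay outside the controls while replicate 2 lay within their range, and they are given as a description. Prok1, a secreted peptide, was at 4.33, 4.44 and 4.09 in the controls, at 4.19 in replicate 2 and at 0.37 and 0.12 in replicates 1 and 3. Akr1c18, a steroid dehydrogenase, was at 4.37, 2.65 and 3.88, at 3.48 in replicate 2 and at -3.36 and -2.62 in the others. In the other direction, Rbm3, a cold-induced RNA-binding protein, was at 6.08, 5.83 and 6.16, at 6.03 in replicate 2 and at 8.05 and 8 in the others. The metallothionein Mt2 and the protease inhibitor Serpinb1a had the same order, at 5.23 and 3.63 in replicate 2 against 7 to 7.85 and 5.76 to 5.99 in the others and 4.58 to 5.24 and 3.02 to 3.83 in the controls.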

How the data were processed

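From the authors came 1 deposited table of raw read counts for 56722 genes, made from poly(A)-selected RNA of whole kidney. fastp 0.20.0, featureCounts and the genome build GRCm39 are named in, and credited to, the submitters' processing notes. The aligner, annotation, strand setting and handling of multi-matching reads were not given in the sources used here, and paralogs, overlapping genes and antisense partners may share reads. Columns were matched to samples by name and groups were taken from the sample titles. Genes with no symbol (2803, holding 1.87% of the counts of the 6 libraries) were tested but not named.

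The 6 libraries were fitted with edgeR 4.0.16 (R 4.3.3): filtering by expression, trimmed-mean scaling, the quasi-likelihood test with 4 residual degrees of freedom, and Benjamini-Hochberg adjustment over 18333 genes at 0.05. Each SE is the size of the log2 fold change over the root of its F value. Levels are log2 CPM with a prior count of 2. On simulated counts of 17496 genes for this comparison the same fit recovered 96% of 100 genes changed 2-fold and 100% of 100 changed 4-fold, and called 14 unchanged genes. The simulation gave every library the spread of the controls. Pairs of day-21 libraries differed more (chi-square per degree of freedom of 138 to 407) than pairs of controls (12.6 to 18.3). These shares therefore do not carry over to the measured genes, least of all to those whose day-21 libraries differed widely among themselves. With all 6 libraries edgeR's test did not call Egf (log2 fold change -2.8, adjusted p = 0.112) or Nphs1 (-1.96, adjusted p = 0.274). Both were lower by more than 2-fold, so a missing call is not evidence of no change. Total counts of 34214443 to 42654903 per library give little counting error except for genes of few counts, whose counts are printed. Libraries of a group differed by more than sampling noise (chi-square per degree of freedom of 12.6 or more). Intervals cover counting error only.

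Alternatives were other scalings, filters, fold minimums and prior counts, DESeq2 1.42.0, limma 3.58.1 (voom), a fit of all 12 libraries, a replicate block and leaving out each library. The 50 gene lists, the named genes and the comparison itself were chosen with earlier results of these data known. Genes were named by rule: 5 podocyte genes; the 12 largest rises and falls among called genes whose log2 CPM averaged 1 or more and whose groups do not overlap; in each list the 2 called genes with the largest change and the 2 with the smallest adjusted p; and up to 8 genes of each library pattern. Not every gene the rule names is printed, and some results are not reported here. Members named for contrast (such as Egf, Slc7a13, Gatm, Umod, Csf1r, Cdkn1c, Arntl and the collagen IV chains) were chosen after their values were seen. Promoter sequences came from RefSeq, GRCm38.p6, and coordinates of the 2 builds were not mixed.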

Additional observations from a re-analysis of the deposited data

How the results depend on the processing

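The count of 1631 genes depended on the fit. Median-of-ratios scaling gave 1595 genes, testing all genes with no filter 2074, keeping genes with 1 CPM or more in 3 libraries 1290 and an absolute log2 fold change of at least 1 gave 1296, each within 1.5 times. Library totals alone gave 5941 genes (92.8% higher), DESeq2 5124 (55.2% higher), limma-voom 986 (66.1% higher) and all 12 libraries 8490 (56.8% higher, of 19821 tested), against 78.8% in the count reported. The cause of these differences was not tested. Leaving out 1 library gave 3 to 11058 genes. Only the fit without day-21 replicate 2 rose above the count reported, and the 3 to 14 genes of the other 5 compare with 4337 to 4798 genes at an unadjusted p under 0.05. Library totals alone reversed Synpo (0.15) and Csf1r (0.39), neither of which passed a test. Of 151 genes named, 148 kept direction and side of the threshold with median-of-ratios scaling, 128 with library totals, 126 with DESeq2 and 118 with limma-voom, under which 32 lost their call. A prior count of 0.5 moved 3 list medians of single libraries by more than the spread and left 144.

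Control and day-21 kidneys share replicate numbers. Deviations from the group means of same-numbered libraries had correlations of 0.198, 0.135 and -0.0698, and those of unlike numbers had -0.205 to 0.0744. Controls 1 and 2 correlated best with their own number and control 3 did not. The labels state no pairing, and the numbers were not read as pairs. A replicate block gave 591 calls (515 higher and 76 lower), and 47 of the 151 named genes lost theirs.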
